A study of Mus musculus with 24 samples.

Results

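This comparison set the whole-tissue H3K4me3 profiles of 2 mouse lines side by side, without the step that selects FLAG-tagged chromatin. Its members were the 3 single ChIP-Seq libraries of the Camk2a H2B-FLAG line and the 3 of the Rosa H2B-FLAG line, 6 of the 24 samples of the series, and the measurement was the read count in each of 17993 regions shared by all libraries. The samples were labelled cerebral cortex of C57BL/6 mice. The Rosa group had the genotype Rosa CAG-H2B-FLAG, in which FLAG-tagged histone H2B is made throughout the body from a CAG promoter knocked into the Rosa26 locus, after the stop cassette had been removed by Vasa-Cre in the germ line. The Camk2a group carried the allele Rosa26 CAG-floxed-pA-H2B-FLAG together with CaMKCreERT2, so that the same cassette is opened by tamoxifen only in cells that use the Camk2a promoter, mainly excitatory neurons of the forebrain. Each lysate came from 2 animals, and the Camk2a animals were double-heterozygous males treated at 8 weeks with 1 mg of tamoxifen a day for 5 days and taken a month later. The tissue was from adults, but the exact age, the sex and any tamoxifen treatment of the Rosa animals were not given in the sources used here, so genotype, treatment and age cannot be told apart in any result below. The labels give each library a replicate number and nothing else about its origin, so the spread between these libraries may be technical. The edgeR p-values and SE use a spread pooled mostly over regions, with 205.6 prior degrees of freedom against 4 of a region's own. They can therefore understate the spread at a region whose libraries differ more than most.

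H3K4me3, trimethylation of lysine 4 on histone H3, marks the start sites of active and poised genes. It is laid down by the SET1 and MLL enzyme complexes, mostly over CpG islands, and in brain a broad domain is known from genes that define a cell type. A single ChIP-Seq profile of cortex is the sum over neurons, glia and vessel cells, so fewer cells of a type and less of the mark per cell cannot be told apart.

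The lines differed little, and the differences fell into 4 kinds. The region at Camk2a and both of its neighbours were higher in the Camk2a line, mitochondrial DNA and a set of intervals mostly away from promoters were higher, most other higher calls were at weak regions, and most lower calls were small decreases at strong promoters. Promoters of 3 oligodendrocyte genes were among the lower ones. In edgeR's quasi-likelihood test at an adjusted p under 0.01, 167 regions were called higher in the Camk2a line (0.928% of those tested) and 219 lower (1.22%), together 2.15%. The median log2 fold change was 0.73 among the higher regions, a 1.65-fold change, and fell by 0.19 among the lower ones, a ratio of 0.875. The groups did not overlap in CPM, the count scaled to equal library totals, at 166 of the 167 higher and at all 219 lower regions, against 25.2% of all regions. The calls were made from these same libraries, so this follows largely from the calls and is no further evidence for them.

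The libraries held 6316125 to 8644574 counts in the Rosa group and 4063200 to 4233144 in the Camk2a group, so that mean depth was 1.78-fold higher in the Rosa group and depth was confounded with line. Replicates within a group differed by little more than counting error, with a chi-square per degree of freedom of 1.05 to 1.10. Of the 27 DESeq2 calls in the higher direction and the 7 in the lower direction, each was also an edgeR call.

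Sequences of 4 intervals outside promoters are shown first because large increases were found there, and because they shared sequence with each other. The interval near E030030I06Rik and the one 164665 bases from Gdi2 lie on different chromosomes and hold the same stretch of 46 bases, printed in capitals with the bases around it. The interval near Ly6c2, a locus of Ly6 cell-surface antigens, and the one near Fam107a share 83 bases. Coordinates and sequence are those of mm9, chr10:21862399-21862484 on the plus strand, chr13:3372583-3372656 on the minus strand, chr15:74916957-74917079 and chr14:9119128-9119250 on the plus strand.
near E030030I06Rik: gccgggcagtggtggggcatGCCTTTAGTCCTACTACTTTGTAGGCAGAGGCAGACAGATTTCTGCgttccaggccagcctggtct
near Gdi2: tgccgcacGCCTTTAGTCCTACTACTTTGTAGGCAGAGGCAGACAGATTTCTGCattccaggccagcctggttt
near Ly6c2: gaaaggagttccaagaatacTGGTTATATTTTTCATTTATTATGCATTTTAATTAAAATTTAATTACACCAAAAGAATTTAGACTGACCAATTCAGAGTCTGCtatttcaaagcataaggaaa
near Fam107a: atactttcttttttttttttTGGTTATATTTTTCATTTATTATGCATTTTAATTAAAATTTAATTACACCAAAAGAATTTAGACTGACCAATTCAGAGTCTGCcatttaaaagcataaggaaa

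Promoters of 3 genes whose start sites were lower are shown for their CpG content, each as the 150 bases before the outermost annotated coding start inside the region, 5′ to 3′ on the gene's strand. They are Med30 (chr15:52543850-52543999, plus), a Mediator subunit, Arid1a (chr4:133309527-133309676, minus), a subunit of the BAF chromatin remodelling complex, and Olig1 (chr16:91269864-91270013, plus), a transcription factor of oligodendrocytes. Grin3a (chr4:49858563-49858712, minus), an NMDA receptor subunit whose start site was higher, is the fourth. Capitals mark CG dinucleotides, of which the windows hold 14, 19, 11 and 12, against none in the 123 bases shown near Ly6c2.
Med30: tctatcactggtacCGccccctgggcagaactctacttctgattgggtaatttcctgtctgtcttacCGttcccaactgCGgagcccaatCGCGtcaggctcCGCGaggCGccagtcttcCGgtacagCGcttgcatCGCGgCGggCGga
Arid1a: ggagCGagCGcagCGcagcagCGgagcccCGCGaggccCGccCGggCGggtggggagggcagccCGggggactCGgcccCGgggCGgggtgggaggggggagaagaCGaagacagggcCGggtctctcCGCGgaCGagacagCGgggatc
Olig1: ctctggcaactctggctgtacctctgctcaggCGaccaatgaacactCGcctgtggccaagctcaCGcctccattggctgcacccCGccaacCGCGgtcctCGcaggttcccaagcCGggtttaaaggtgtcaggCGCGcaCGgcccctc
Grin3a: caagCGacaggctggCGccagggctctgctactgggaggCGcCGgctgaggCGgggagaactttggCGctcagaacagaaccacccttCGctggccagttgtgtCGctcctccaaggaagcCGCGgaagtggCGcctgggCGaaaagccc

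The neighbourhood of Camk2a on chromosome 18 held the clearest difference at ordinary promoters. Camk2a encodes the alpha subunit of calcium/calmodulin-dependent protein kinase II, and its promoter drives Cre in this line. At the Camk2a start site (chr18:61084429-61090503) the Rosa libraries stood at 172, 167 and 172 CPM and the Camk2a libraries at 256, 244 and 233 CPM. All 3 Camk2a libraries lay above all 3 Rosa libraries, with a fold of 1.44 (log2 0.52, SE 0.04, edgeR adjusted p = 3.74e-27). Arsi, an arylsulfatase gene whose region is centred 13.6 kb from the Camk2a start site, had only 5.39, 6.90 and 6.25 CPM in the Rosa libraries and 22.6, 23.3 and 25.8 CPM in the Camk2a libraries. This was the largest relative difference of the 3, at 3.83-fold (log2 1.94, SE 0.15, edgeR adjusted p = 1.70e-26). Slc6a7, the proline transporter of excitatory synapses, lies 87.4 kb on the other side and rose from 47.4, 42.6 and 46.5 CPM to 76.2, 74.4 and 69.4 CPM, a fold of 1.62 (log2 0.70, SE 0.07, edgeR adjusted p = 2.79e-16).

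These 3 regions span 103 kb and no other listed region lies between them. The next region on one side, at the ribosome biogenesis gene Tcof1, 76.9 kb from Camk2a, had a log2 fold change of 0.02 (SE 0.08). The next on the other side, at the pericyte receptor gene Pdgfrb, 121 kb from Camk2a, also had 0.02 (SE 0.08). Of the 17 regions within 500 kb of the Camk2a start site only these 3 were called, and the median log2 fold change over the 17 was -0.01.

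**Figure D1:**
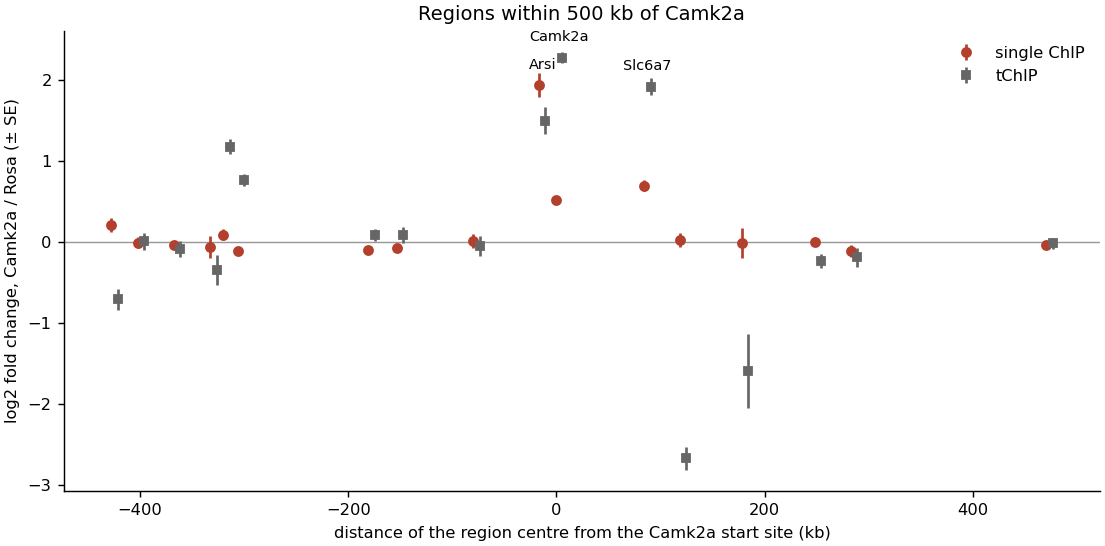
Log2 fold change (Camk2a over Rosa, ± SE) of the 17 regions within 500 kb of the Camk2a start site against the distance of each region's centre from it in kb, in single ChIP (circles) and tChIP (squares), drawn slightly apart. In single ChIP Arsi, Camk2a and Slc6a7 lie at 1.94, 0.52 and 0.70, and the other 14 regions lie between -0.11 and 0.21.

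The tChIP-Seq libraries of the same lines, 3 a group, were made with the FLAG step before the H3K4me3 step and have totals of 1457261 to 3049130. There the line difference at Camk2a was 2.27 on the log2 scale and at Slc6a7 1.92, larger than in single ChIP-Seq by 1.74 (SE 0.08) and 1.21, in both cases past the threshold in the test of the interaction of line and assay (edgeR adjusted p = 1.33e-56 and 6.45e-17). Arsi went the other way. Its tChIP-Seq difference was 1.496, and the difference between the assays of -0.45 (SE 0.24) did not pass the threshold (edgeR adjusted p = 0.151).

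The beta, gamma and delta subunit genes of the kinase, Camk2b, Camk2g and Camk2d, were not called, with log2 fold changes of -0.03, -0.10 and -0.01, against a median of 0.00 over all regions.

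Rosa26, which holds the cassette in both lines, and Ddx4, whose promoter drives Vasa-Cre, are the other loci of the lines' construction. The start site of Gt(ROSA)26Sor, the noncoding gene that received the cassette, lies in the same region as that of Setd5, a chromatin regulator gene (chr6:113024694-113030734). This region stood at 249, 252 and 249 CPM in the Rosa libraries and at 278, 277 and 274 CPM in the Camk2a libraries, a fold of 1.11 (log2 0.14, SE 0.03, edgeR adjusted p = 0.00363). The groups did not overlap, as at 25.2% of all regions. The call was lost when any library other than Rosa replicate 2 was left out. The log2 fold changes in those fits were 0.14 to 0.15 and the edgeR adjusted p 0.0110 to 0.0256. After the strength trend was removed, a setting chosen after the data were seen, the region stood at 0.22 (edgeR adjusted p = 1.71e-07). DESeq2 did not call it (adjusted p = 0.0970). None of the other 23 regions within 500 kb was called. No listed region held the start site of Ddx4, a germ cell helicase gene, and none of the 12 regions within 500 kb of it was called.

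Mitochondrial DNA was higher in the Camk2a line. Mitochondrial DNA carries no histones. The interval that holds mt-Nd1, mt-Nd2 and mt-Co1, subunits of complexes I and IV, stood at 247, 155 and 190 CPM in the Rosa libraries and at 455, 429 and 378 CPM in the Camk2a libraries. The difference was 2.16-fold (log2 1.11, SE 0.04, edgeR adjusted p = 2.33e-62). The second interval, with mt-Nd5, mt-Nd6 and mt-Cytb, stood at 197, 137 and 168 CPM against 367, 365 and 304 CPM, or 2.08-fold higher (log2 1.06, SE 0.04, edgeR adjusted p = 2.33e-60). The spread among the Rosa libraries was wider here than at promoters, but no library crossed over to the other group. The edgeR SE rests mostly on the pooled spread, and DESeq2's Wald test gave adjusted p = 0.000306 and 1.67e-06 for the 2 intervals.

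Intervals near the first assembled base of chromosome 11 were also higher. Sfi1, a centrosomal protein gene, has 2 regions. The first (chr11:3041347-3047409) went from 37.9, 25.96 and 31.2 CPM to 109, 112 and 143 CPM, 3.87-fold higher (log2 1.95, SE 0.07, edgeR adjusted p = 5.05e-67). The second rose 1.70-fold (log2 0.77). Together with an interval inside the pseudogene Pisd-ps1, at 0.92, they formed a run of 3 called regions with no other region among them. On the autosomes and X, 6 of the 71 regions in the first 500 kb of assembled sequence were called higher, 8.45% against 0.928% of all regions, and none lower. These 6 include the 3 regions of this run, which lie together at 1 locus, and the intervals near Gdi2 and Vmn1r238 described below. In the last 500 kb 3 of 114 were called higher and 2 lower. These windows were chosen after the values were seen.

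On chromosome 17 lie 2 adjoining intervals, 362131 and 359713 bases from Pgk2, with a high CpG content (10.9% of dinucleotides in each). The first (chr17:39979976-39983423) stood at 72.4, 54.1 and 61.4 CPM in the Rosa libraries and at 166, 155 and 193 CPM in the Camk2a libraries, 2.75-fold higher (log2 1.46, SE 0.05, edgeR adjusted p = 6.97e-66). The second, at the noncoding start site of AY036118, rose 3.75-fold (log2 1.91). On chromosome 15 the interval 24593 bases from Ly6c2 (chr15:74915917-74917521), whose sequence is shown above, stood at 21.4, 14.5 and 15.1 CPM against 84.1, 81.9 and 86.7 CPM, 4.98-fold higher (log2 2.32, SE 0.09, edgeR adjusted p = 1.15e-66). It was the second lowest adjusted p of all regions.

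Only 2 regions of the whole list shared at least 20 runs of 24 bases with the interval near Ly6c2, and both were called higher, the one near Fam107a at 2.04 and one near Vmn1r238 at 1.78. The interval near E030030I06Rik rose from 1.56, 1.64 and 1.44 CPM to 11.3, 11.0 and 11.0 CPM, 7.03-fold (log2 2.81, SE 0.24, edgeR adjusted p = 9.44e-22). Of the 3 regions that shared at least 20 such runs with it, the one near Gdi2 shared 96 and was called higher, at 2.96. Those at Adat1 and Rps19bp1 shared only 23 and 22 and were not called, at -0.09 and -0.04. The pairs shown were picked after their values were seen.

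The other regions among the largest increases were weak and narrow. Regions at the pseudogene Speer7-ps1 (log2 3.12), inside Kctd16 (2.85), inside the double homeobox gene Dux (2.76), near Polr3k (2.57), inside Fbxw4 (2.56) and near Gm10354 (2.52), and an unplaced interval (2.72), held 27 to 67 counts over the 6 libraries and were 246 to 591 bases wide. The region near Gm17576 had 2 counts in the Rosa and 16 in the Camk2a libraries, a ratio of 14.2 with an exact binomial 95% interval of 3.34 to 127 that covers counting error only. Its call was lost without Rosa replicate 2 or 3 (adjusted p = 0.0178 and 0.0131 in edgeR), and that near Gm10354 without Camk2a replicate 2 (log2 2.06, adjusted p = 0.0795) or Rosa replicate 3 (adjusted p = 0.0179).

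**Figure D2:**
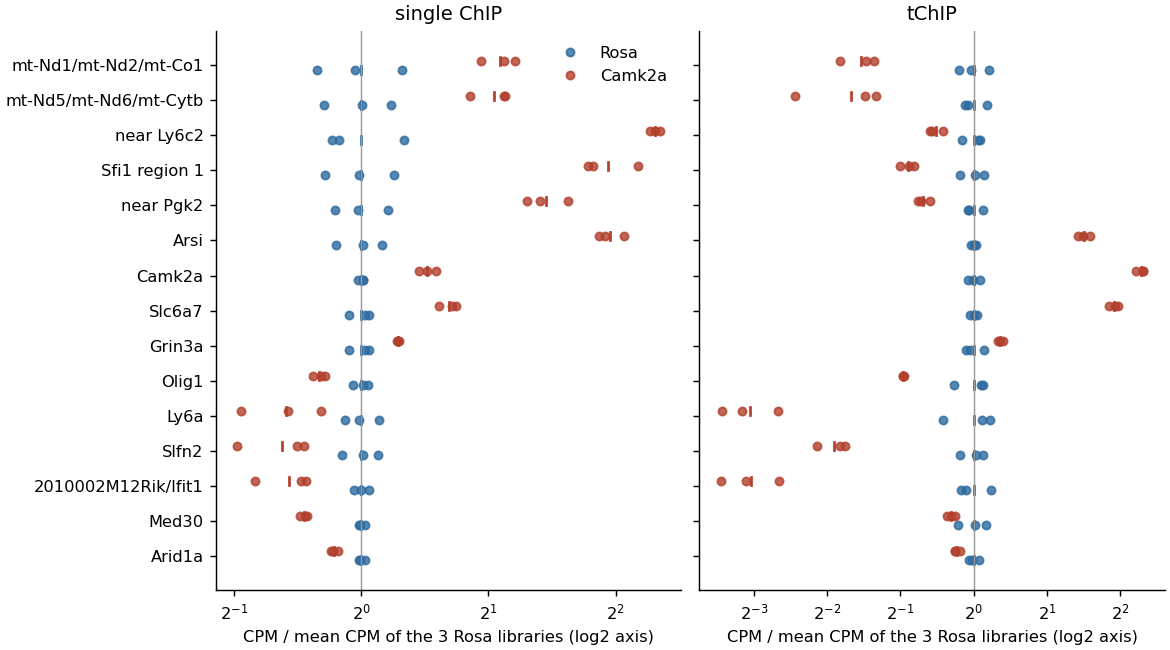
Each point is the CPM of 1 library divided by the mean of the 3 Rosa libraries of the same assay, on a log2 axis, for 15 regions in single ChIP (left) and tChIP (right), with Rosa in blue, Camk2a in red and short bars at group means. In single ChIP the mitochondrial, Ly6c2, Sfi1 and Pgk2 intervals lie above 1 in all 3 Camk2a libraries and in tChIP their Camk2a means lie below 1, whereas Arsi, Camk2a and Slc6a7 lie above 1 in both.

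In tChIP-Seq the line difference at each of the intervals named above had the opposite sign, except at the one inside Kctd16 (0.21). The mitochondrial intervals were lower in the Camk2a line there, at -1.55 and -1.68, as were the first Sfi1 region (-0.90), the interval near Ly6c2 (-0.52) and the one on chromosome 17 (-0.69). In all, 35 of the 167 higher regions were called lower in tChIP-Seq and 41 called higher, against 14.6% and 17.0% of all regions. The interaction passed the threshold at 98 of the 167, among 26.9% of all regions, and was towards the lower side at 81 of them. These 167 were picked for a high single ChIP-Seq difference, which the interaction subtracts. Part of this lean to the lower side was therefore built in.

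Read against strength, the difference between the lines was a gradient. Over deciles of the regions ranked by total count, the median log2 fold change went from 0.29 in the weakest decile through 0.16 in the third and 0.03 in the fifth to -0.05 in the eighth and -0.07 in the strongest. Of the 167 higher calls 124 lay in the weakest 4 deciles, and of the 219 lower calls 136 lay in the strongest decile. Strength, width and annotation moved together. The higher regions had a median of 359 counts and a median width of 1184 bases, the lower ones 4707 counts and 2857 bases, and all regions 1545 counts and 1774 bases.

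**Figure D3:**
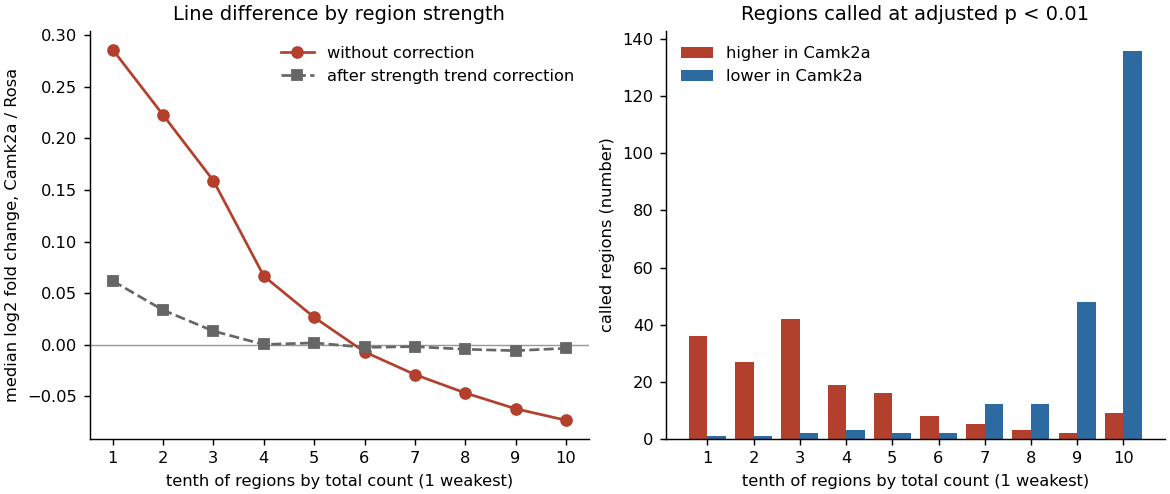
Left, median log2 fold change (Camk2a over Rosa) in each decile of the regions by total count, for the fit as reported (circles) and after each library's trend with strength was removed (squares), where the medians lie between -0.01 and 0.06. Right, number of regions called higher (red) and lower (blue) in each decile, with 36 higher in the weakest and 136 lower in the strongest.

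Over all regions 0.928% were called higher and 1.22% lower. By annotation, intergenic regions were called higher at 44 of 2490 (1.77%) and lower at 1 (0.04%). Regions inside gene bodies were called higher at 27 of 2074 (1.30%) and lower at 6 (0.289%). Protein-coding start sites were called higher at 82 of 12985 (0.631%) and lower at 208 (1.60%). Among start sites of the weakest 4 deciles alone 43 of 2838 were higher and 5 lower, so the balance of calls among weak start sites was opposite to that among all start sites. The median log2 fold change was 0.12 there, beside 0.19 for both intergenic and gene-body regions of the same deciles. By CpG content, 51 of the 1797 regions in the poorest decile were higher (2.84%) and 4 lower (0.223%). In the richest decile 21 of 1797 were higher (1.17%) and 81 lower (4.51%).

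The libraries showed the same shift as a share of counts. The weakest 4 deciles took 7.25%, 7.17% and 7.18% of the counts of the Rosa libraries and 7.91%, 8.09% and 8.03% of those of the Camk2a libraries. The strongest decile took 30.1%, 30.2% and 30.3% against 29.4%, 29.3% and 29.4%. The groups did not overlap in either share, and an exact two-sided permutation test gave p = 0.1, the smallest that 3 against 3 allows. In tChIP-Seq the share of the weakest 4 deciles was lower in the Camk2a line, at 9.89% ± 0.14 (SD, n = 3) against 11.3% ± 0.07 (SD, n = 3). In both assays the more shallowly sequenced line had the higher share, and depth and line cannot be told apart. With all libraries thinned to the lowest total, the median of the weakest decile was 0.29 and that of the strongest -0.07, as without thinning. Thinning keeps each region's expected share of its library, so it cannot tell depth from line.

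**Figure D4:**
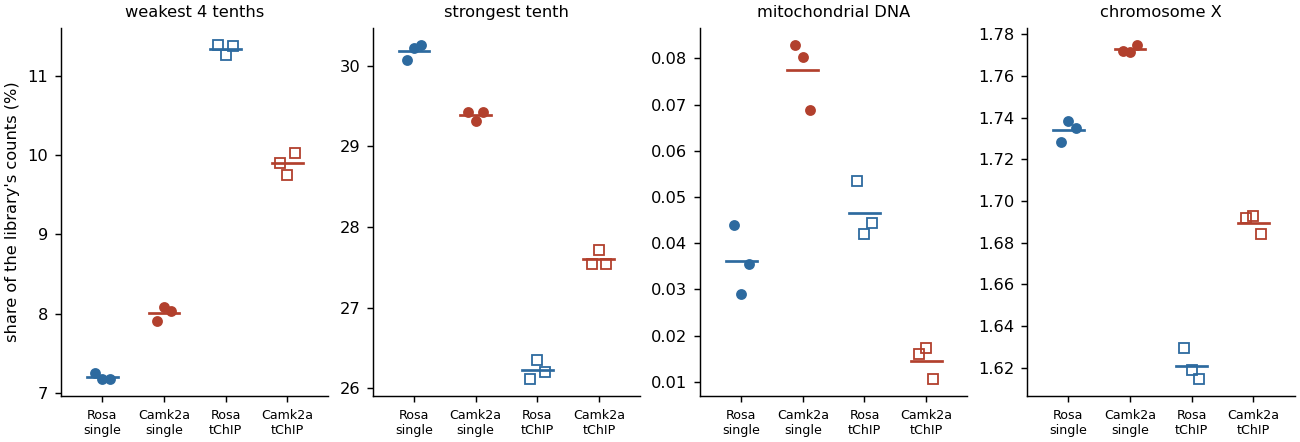
Share of each library's counts (%) in the weakest 4 deciles of regions, the strongest decile, mitochondrial DNA and chromosome X, with 1 point a library, bars at group means, Rosa in blue, Camk2a in red, filled circles for single ChIP and open squares for tChIP. The axes do not start at 0. In single ChIP the Camk2a libraries lie above the Rosa libraries in all panels but that of the strongest decile.

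After each library's trend with region strength was removed, 85 regions were called higher (0.472%) and 33 lower (0.183%), of which 66 and 26 were among the calls above. The Camk2a, Arsi, Slc6a7, Sfi1, mitochondrial, Ly6c2 and chromosome 17 calls were kept, and Arsi stood at 1.80 and Camk2a at 0.60 on the log2 scale. This setting was chosen after the data were seen.

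The lower start sites with the lowest adjusted p were led by Arid1a and Med30, whose promoters are shown above. Arid1a (chr4:133306268-133311155) stood at 382, 384 and 394 CPM in the Rosa libraries and at 327, 341 and 332 CPM in the Camk2a libraries, a ratio of 0.863 (log2 -0.21, SE 0.03, edgeR adjusted p = 6.30e-08). Med30 (chr15:52543436-52545054) went from 68.0, 68.4 and 70.2 CPM to 49.3, 50.6 and 51.2 CPM, a ratio of 0.732 (log2 -0.45, SE 0.07, edgeR adjusted p = 5.51e-07). The groups were well apart at both. The other 8 included Gpbp1 (-0.29), Ankrd11 (-0.24), Ier5l (-0.24), Zfp800 (-0.24) and the kinase gene Cdk13 (-0.18). The rest were Socs7 (-0.21), an adaptor in cytokine signalling, Zfp36l2 (-0.28), an RNA-binding regulator of mRNA decay, and Nrf1 (-0.24), an activator of nuclear genes for mitochondrial proteins. All 10 calls were kept in each of the 6 fits that left out a library. DESeq2 did not call Zfp36l2, Nrf1, Zfp800 and Cdk13 (adjusted p = 0.0156, 0.0123, 0.0110 and 0.0110), and after the strength trend was removed Socs7 and Cdk13 were not called (edgeR adjusted p = 0.0251 and 0.109) and Arid1a stood at -0.13. In tChIP-Seq the difference at Arid1a was -0.22 and at Med30 -0.30, and the interaction did not pass the threshold (edgeR adjusted p = 0.845 and 0.409).

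The largest decreases were at weak regions. A region 2 bases from a start of Pcdhb16, a clustered protocadherin, had 91 counts in all and a log2 fold change of -1.64 (SE 0.36), a call lost without Camk2a replicate 1 or 2 or Rosa replicate 2 (log2 -1.55 to -1.45, adjusted p from 0.0154 to 0.0247). The next was 1700030C10Rik, with 253 counts and a CpG content of 8.47%, at -0.85 (SE 0.21), a call lost in 4 of the 6 fits that left out a library (log2 -0.90 to -0.61, adjusted p from 0.0192 to 0.0944). Ifit1, induced by interferon, stood at 22.3, 23.4 and 21.5 CPM against 12.5, 16.6 and 16.1 CPM (log2 -0.58, SE 0.12, edgeR adjusted p = 0.000935). Ly6a, a surface antigen of vessel cells and lymphocytes, stood at 16.9, 18.2 and 20.4 CPM against 9.61, 12.4 and 14.9 CPM (log2 -0.58, SE 0.14, edgeR adjusted p = 0.00308). Slfn2, a Schlafen gene of immune cells, went from 17.0, 14.0 and 15.7 CPM to 7.93, 11.4 and 11.0 CPM (log2 -0.61, SE 0.15, edgeR adjusted p = 0.00471). At all 3 the lowest value was that of Camk2a replicate 1, and without it the log2 differences came to -0.46, -0.44 and -0.47 and the calls were lost (edgeR adjusted p = 0.0345, 0.0754 and 0.0834). The Ifit1 call was also lost without Rosa replicate 2, the Ly6a call without Camk2a replicate 2 or Rosa replicate 2 or 3, and the Slfn2 call without Camk2a replicate 2 or Rosa replicate 1 or 3. In tChIP-Seq all 3 were called lower, with log2 fold changes of -3.04, -3.02 and -1.89.

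The window of 150 bases before the Ifit1 start (chr19:34715211-34715360, plus strand, mm9) is shown for the core of the interferon response element, GAAA, any 2 bases and GAAA again or the complement of this, which it holds in 2 copies, in capitals.
Ifit1: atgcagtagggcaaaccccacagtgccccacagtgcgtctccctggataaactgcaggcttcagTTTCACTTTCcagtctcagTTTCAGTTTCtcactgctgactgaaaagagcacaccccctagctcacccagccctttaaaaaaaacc

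At least 1 copy on either strand was found in 155 of 12736 such windows, 1.22%. Of 15 regions of interferon-stimulated genes Ifit1 alone was called, where 1.22% of all regions were called lower and 0.928% higher. In this list 7 had log2 fold changes above 0, and the median was -0.03. The highest value, named after it was seen, was 0.66 at Gbp2 (SE 0.21, edgeR adjusted p = 0.0379).

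Among the lists of cell type markers, that of oligodendrocytes and their precursors held 3 calls. Of its 10 regions 3 were called lower, against 1.22% of all regions, and 9 had log2 fold changes below 0, with a median of -0.17 against 0.00 over all regions. Olig1, a transcription factor of the lineage, stood at 63.3, 61.5 and 58.5 CPM in the Rosa and at 50.0, 46.9 and 49.0 CPM in the Camk2a libraries (log2 -0.33, SE 0.07, edgeR adjusted p = 0.00118). Its partner Olig2, which lies beside it on chromosome 16, stood at 73.5, 77.5 and 80.6 CPM against 70.2, 58.6 and 67.0 CPM (log2 -0.24, SE 0.06, edgeR adjusted p = 0.00932). Cnp, a myelin enzyme gene, stood at 120, 124 and 128 CPM against 103, 112 and 110.9 CPM (log2 -0.19, SE 0.05, edgeR adjusted p = 0.00877). In all 3 the groups did not overlap, as at all 219 regions called lower and at 25.2% of all regions. This follows largely from the calls. Mog and Mbp, genes of myelin proteins, had log2 fold changes of -0.45 (SE 0.16) and -0.17 (SE 0.06) and were not called. Without Camk2a replicate 2 the Olig1 and Olig2 calls were lost (log2 -0.31 and -0.17, edgeR adjusted p = 0.0247 and 0.181), the Olig2 call was also lost without Camk2a replicate 3 or Rosa replicate 2 or 3, and the Cnp call was kept only without Rosa replicate 1. After the strength trend was removed the Olig1 call alone was kept, at -0.32, and DESeq2 called none of Olig1, Olig2 and Cnp (adjusted p = 0.0966, 0.250 and 0.245).

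No other cell type list had more than 1 called region. Of 17 regions of excitatory neuron genes Camk2a was called higher, against 0.928% of all regions. The vesicular glutamate transporter gene Slc17a7 had a log2 fold change of -0.02. None was called among 11 regions of inhibitory neuron genes (median 0.07), 13 of astrocytes (0.02), 13 of endothelial cells (-0.01), 8 of pericytes and meninges (0.03), 6 of choroid plexus and ependyma (0.12), 2 of microglia (-0.04) and 1 of blood cells (-0.10). Of markers that tell cortex from other brain tissue taken with it, none was called among 13 striatal (0.18), 5 thalamic and hypothalamic (0.05), 8 cerebellar (0.09) and 10 hippocampal (0.03) regions. Start-site regions were listed for 17 of 18 excitatory neuron genes (not for Tbr1, of deep cortical layers), 13 of 15 striatal, 10 of 13 hippocampal, 8 of 16 cerebellar, 5 of 16 thalamic and hypothalamic and 6 of 14 choroid plexus and ependyma genes. The striatal list was weak, with a median of 554 counts, and its median was 0.07 after the strength trend was removed.

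**Figure D5:**
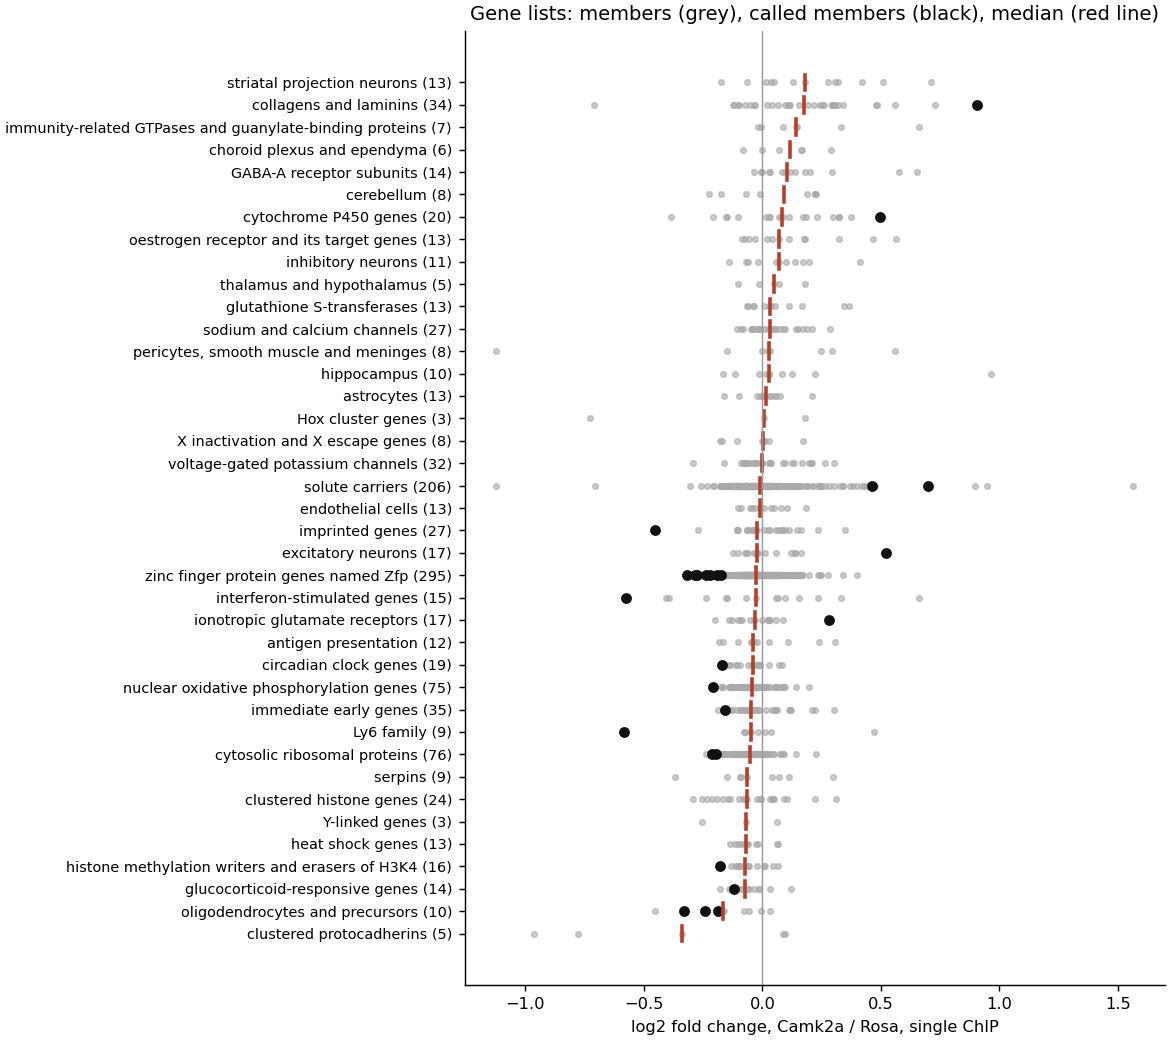
Log2 fold change (Camk2a over Rosa, single ChIP) of each member region of gene lists with at least 3 regions (number of regions in brackets), with called members in black and the list median as a red line. Most medians lie within 0.1 of zero. Those farther out include the protocadherin list at -0.34, the oligodendrocyte list at -0.17, the collagens and laminins at 0.17 and the striatal list at 0.18.

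Among lists of neuronal function, Grin3a was the only ionotropic glutamate receptor gene called of 17, at 48.4, 49.6 and 44.4 CPM in the Rosa and 58.2, 57.9 and 57.7 CPM in the Camk2a libraries (log2 0.28, SE 0.07, edgeR adjusted p = 0.00886). The call was lost without any 1 of the 6 libraries (log2 0.24 to 0.32, adjusted p 0.0127 to 0.0554). None of 14 GABA-A receptor regions was called, and 11 of them had log2 fold changes above 0, with a median of 0.11. None of 32 potassium channel and none of 27 sodium and calcium channel regions was called, with medians of 0.00 and 0.03. Of 206 solute carrier regions Slc6a7 and Slc2a12, a glucose transporter gene (0.46), were called higher, against 0.928% of all regions. The Slc2a12 call was lost without Camk2a replicate 1 or 2 or Rosa replicate 2 (adjusted p from 0.0107 to 0.0247 in edgeR).

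Lists of genes known to respond to an animal's state held 3 calls, all lower, against 1.22% of all regions and 136 of 1800 in the strongest decile. Of 35 immediate early gene regions Junb was called lower (-0.16), of 19 circadian regions Clock (-0.17), and of 14 regions of glucocorticoid-responsive genes Klf9 (-0.12). Each of these 3 calls was kept in 1 of the 6 fits that left out a library, with adjusted p of 0.0133 to 0.101 in the others. None of 13 regions of the oestrogen receptors, which bind tamoxifen, and their target genes was called (median 0.07), nor any of 13 heat shock (-0.07) or 12 antigen presentation regions (-0.04). Of 27 imprinted regions Ndn, a paternally expressed gene, was lower (-0.45, SE 0.11), a call lost without any 1 library (log2 -0.49 to -0.39, edgeR adjusted p from 0.0121 to 0.0726).

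Housekeeping lists held few calls, all lower, where 1.22% of all regions were called lower. Of 76 regions of cytosolic ribosomal protein genes 17 had log2 fold changes above 0 (median -0.05), and Rpl27a (-0.21) and Rpl19 (-0.19) were called. Of 75 regions of nuclear oxidative phosphorylation genes 17 were above 0 (median -0.04), and the ATP synthase gene Atp5g3 (-0.21) was called. The Rpl27a and Rpl19 calls were each kept in 1 of the 6 fits that left out a library (adjusted p of 0.0113 to 0.0829 in the others), and the Atp5g3 call in 3. Of 295 regions of genes named Zfp 7 were called lower, against the same 1.22%, and none higher (median -0.03), led by Zfp36l2, Zfp800, Zfp503 and Zfp217. Among 16 regions of the enzymes that write or erase H3K4 methylation the demethylase gene Kdm5b was lower (-0.18), with a median of -0.07. Weaker lists were the collagens and laminins and the cytochrome P450 genes. The collagens and laminins had a median of 0.17 over 34 regions, or 0.06 after the strength trend was removed, and Col5a2 was called higher (0.91). The cytochrome P450 genes had a median of 0.08 over 20, and Cyp26b1, an enzyme of retinoic acid breakdown, was called higher (0.50). Over all regions 0.928% were called higher. The Cyp26b1 call was kept in 2 of the 6 fits (adjusted p of 0.0115 to 0.0437 in the others), and those of Zfp503, Zfp217 and Kdm5b in 5, 4 and 4.

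The 5 regions of clustered protocadherin genes had the list median furthest from 0, at -0.34 (-0.56 after the strength trend was removed). They were weak, with a median of 108 counts, and none was called. None was called either among 24 regions of clustered histone genes (-0.07), 9 of serpins (-0.06), 3 of Hox genes (0.01), 13 of glutathione S-transferases (0.03) and 7 of immunity-related GTPases and guanylate-binding proteins (0.14). Of 9 regions of the Ly6 family Ly6a alone was called, lower, against 1.22% of all regions called lower (median -0.05). No region was listed for olfactory, vomeronasal and formyl peptide receptors.

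Whole chromosomes differed little. Over chromosomes 1 to 19, X and Y the ratio of the share of counts in the Camk2a line to that in the Rosa line ran from 0.984 on Y to 1.02 on X, and the groups did not overlap on 9 of the 21 (exact two-sided permutation test, p = 0.1 each, the smallest possible). Chromosome X took 1.73%, 1.74% and 1.74% against 1.77%, 1.77% and 1.77%. Of its 589 regions 4 were called higher, against 0.928% of all regions, and none lower. Their median was 0.02, and -0.03 after the strength trend was removed. The 3 regions on Y, at Ddx3y, Uty and Eif2s3y, had 37.0, 39.99 and 35.1, 40.2, 39.2 and 39.3, and 28.5, 24.1 and 18.7 CPM in the Rosa libraries. In the Camk2a libraries they had 41.8, 38.7 and 37.3, 34.6, 37.8 and 40.7, and 19.0, 19.4 and 21.9 CPM. All 6 libraries thus held Y-linked reads, and none of the 3 regions was called (log2 0.06, -0.07 and -0.26). No start-site region of Xist was listed, and Kdm6a and Usp9x, which escape X inactivation, had -0.18 and -0.17 without being called.

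Runs of at least 3 called regions of the same direction, with at most 1 Mb between neighbours, numbered 6. The 2 higher runs were those at Sfi1 and at Camk2a, in which each region of the span was called. The 4 lower runs held 3 or 4 called regions among 27 to 56, on chromosome 11 around Utp18, Socs7 and Cbx2, a Polycomb gene, and on chromosome 8 around Nacc1 and Junb. The medians over all regions of these spans were -0.05 to 0.00. With at most 500 kb between called regions the 2 higher runs remained and no lower run did.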

How the data were processed

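H3K4me3 ChIP DNA was sequenced in reads of 80 nt. The deposited values are whole-number read counts per region, which the authors made from reads that were left after removal of repeat-mapped reads (Bowtie2 2.1.0), mapped to mm9 with Bowtie 1.0.0, stripped of duplicates (SAMtools 0.1.19 in the submitters' processing notes) and counted over reproducible MACS peaks (bedtools 2.17.0). How the peaks were merged into 1 list is not given in the sources used here. Since repeat-mapped and duplicate reads were removed, counts in repeated sequence are of what was left.

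The counts of the 6 libraries were scaled by TMM and fitted by quasi-likelihood (glmQLFit, glmQLFTest) in edgeR 4.0.16 under R 4.3.3, with no covariate and no filter on low counts. Benjamini-Hochberg adjustment was over all 17993 regions and the threshold was 0.01. The SE is the log2 fold change over the square root of F. tChIP-Seq was fitted the same way, and the interaction of line and assay over 12 libraries. DESeq2 1.42.0 was an alternative, among those of normalization, filter, threshold, replicate block, GC content, depth and leaving out each library. Single shares were compared by an exact permutation test. The fit was tested on simulated counts drawn with the same spread beyond counting error at all regions. That simulation cannot show how the fit does at a region whose libraries differ more than most. Precision is set by depth, so that a region under 150 counts in all was called only at large folds.

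Regions were annotated with GENCODE M1 on NCBIM37, the same build as mm9. A gene's region was the one with the highest count that overlaps a start site of it. Regions named were the 10 called regions with the largest change and the 10 with the lowest adjusted p in each direction, those at and near Camk2a, Ddx4 and Gt(ROSA)26Sor, the leading region of each run, up to 4 called members of each list (where none, 2 members with the highest CPM per kb), and Xist and Y genes. The comparison, the 43 gene lists and the tests were chosen with earlier results of these data known. Input and FLAG libraries were not analysed here. Results of some genes are not reported here.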

Additional observations from a re-analysis of the deposited data

Results flagged for a closer look

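The line difference was not the same in both assays at many called regions, by the test of the interaction of line and assay in edgeR. Of the 167 regions called higher in the Camk2a line in single ChIP-Seq, 35 were called lower in tChIP-Seq with the interaction past 0.01. Of the 219 called lower, 16 were called higher there with the interaction past 0.01. Over all regions 14.6% were called lower and 17.0% higher in tChIP-Seq. The interaction passed at 98 of the 167 and at 61 of the 219, among 26.9% of all regions. These regions were picked by the single ChIP-Seq difference, which the interaction subtracts, so part of the difference between assays was built in. Among the regions with the lowest adjusted p, the tChIP-Seq difference minus the single ChIP-Seq difference on the log2 scale was -3.45 near E030030I06Rik, -2.86 and -1.58 at the Sfi1 regions, -2.85 near Ly6c2, -2.16 in the interval of chromosome 17 that is 362131 bases from Pgk2 and -2.89 at AY036118 beside it. In mitochondrial DNA it was -2.67 at mt-Nd1, mt-Nd2 and mt-Co1 and -2.75 at mt-Nd5, mt-Nd6 and mt-Cytb. At the Sfi1 regions, the Ly6c2 interval and those of chromosome 17, both the Rosa and the Camk2a line had a higher mean CPM after the FLAG step than without it. Groups of 3 libraries are too small for the rule on single far-off samples, which was not applied.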

How the results depend on the processing

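Against 167 higher and 219 lower calls, DESeq2's Wald test gave 27 and 7, and 10 and 2 without the 40% of regions lowest in count. edgeR without those regions gave 63 and 41, thinning to the lowest total 85 and 103, an adjusted p under 0.05 522 and 669, and one under 0.001 56 and 48. Scaling by library totals gave 194 higher and 57 lower, so that 77.3% of calls were higher against 43.3%, and moved the median of all regions by 0.0297. The strength trend correction, added after the data were seen, gave 85 and 33. Leaving out each library gave 69 to 131 higher and 49 to 165 lower calls, lowest without Camk2a replicate 2, and with the strength trend correction 70, 56 and 64 higher and 22, 19 and 19 lower without Rosa replicates 1, 2 and 3, and 55, 49 and 53 higher and 6, 10 and 19 lower without Camk2a replicates 1, 2 and 3. The cause of these moves was not tested, apart from fewer libraries, regions or reads where the setting has them. Without the lowest 40%, tChIP-Seq had 3364 calls against 5682 and the interaction 2840 against 4841. Runs numbered 2 with at most 500 kb between called regions and 72 at an adjusted p under 0.05. DESeq2's size factors, edgeR's newer quasi-likelihood fit, a minimum of 10 counts, all 12 libraries and the GC correction kept both counts within 1.5 times. No called value changed direction under these settings, and of 110 named regions 37 were no longer called by DESeq2 and 18 after the strength trend correction. Depth, 1.78-fold higher in the Rosa line, limits what could be called at weak regions.

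With the replicate number as a block, 169 higher and 264 lower regions were called, 177 and 231 with the GC correction, and 83 and 31 with the strength trend correction. In tChIP-Seq the block gave 5468 calls and in the interaction 4873. Deviations of same-numbered libraries correlated at -0.00236 to 0.0199 over regions, so no pairing by number was seen. Replicates differed by little more than counting error, so this check could not exclude a pairing. Not every library correlated best with its own number, and the block changed no call of the 110 named regions.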
